A study of Mus musculus with 14 samples.

Results

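Osteoblast and osteocyte genes were followed in RNA of sorted mouse bone marrow cells 8 days after external or antibody-delivered radiation. The set held 9 genes, Runx2, Sp7, Alpl, Bglap, Bglap2, Ibsp, Spp1, Dmp1 and Phex, matched by gene name among the 55335 genes of the deposited count table. All 9 were found once and all 9 passed the filter on low counts, which kept 21509 genes. Osteoblasts lay down the collagen matrix of bone and mineralise it, and osteocytes are the osteoblasts that end up enclosed in that matrix. Runx2 and Sp7 (osterix) are the transcription factors of osteoblast commitment, Alpl is the phosphatase that frees phosphate for mineral, Bglap and Bglap2 encode the secreted protein osteocalcin, and Ibsp, Spp1 and Dmp1 encode acidic phosphoproteins of the matrix. Phex, a membrane peptidase, and Dmp1 are also part of the phosphate control by osteocytes. Several of these genes are read outside bone cells too: Spp1 in macrophages and osteoclasts, Runx2 in some blood cells.

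All 14 libraries came from mice of 1 genotype, Cdh5 CRE Rosa26 TdTomato, in which Cre under the promoter of the endothelial cadherin gene Cdh5 switches on a red fluorescent protein. Cells without blood lineage markers, without CD45 and with the red protein had been sorted and labelled as bone marrow endothelium. The 4 untreated libraries served as controls for 5 libraries after total body irradiation (TBI, 500 cGy from caesium; replicates 1, 3, 4, 5 and 6), 3 after 20 µCi of an IgG radioconjugate without a target (non-targeted radioimmunotherapy, IgG RIT) and 2 after 20 µCi of the CD45-directed form (CD45 RIT), a protein of blood cells. The series title names astatine-211 as the radionuclide of the CD45-targeted treatment. Age and sex of the mice, and whether replicates came from separate animals, were not given in the sources used here, so p-values measure the spread between these libraries, which may be technical. With 2 CD45 RIT libraries, a group value there rests on a single pair.

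Total counts per library ranged from 16412779 to 31077588, and 3 counts corresponded to 0.0965 to 0.183 CPM, which are counts per 1000000 counts of the library. The labelled cell type was not borne out by its defining gene: Cdh5 had 0 to 6 counts in untreated, 0 to 5 in TBI and 0 in all RIT libraries, and Pecam1 fell from a mean of 44.3 CPM in untreated to 0.279 CPM in CD45 RIT libraries. Summed over a list of 20 endothelial genes, the level was 203 to 249 CPM in untreated, 85.3 to 182 in TBI, 75.5 to 83.6 in IgG RIT, and in the CD45 RIT pair 97.1 and 364 CPM. Of its 16 tested genes, 4 were called higher and 4 lower after CD45 RIT against untreated (14.5% and 18.6% of all genes). In the CD45 RIT libraries Kdr had 1 and 2390 counts and Plvap had 223 and 2561. The 2 CD45 RIT libraries correlated at 0.673 across genes, against at least 0.906 within the other groups. By the labels, the untreated libraries and all TBI libraries but replicate 6 had library numbers from 1 to 9. That replicate and every RIT library had numbers from 10 to 16. Treatment and library number therefore cannot be told apart in RIT against untreated, nor in RIT against TBI without that replicate. TBI replicate 6 also stood apart from the other TBI libraries by its erythroid genes, which summed to 177473 CPM, whereas replicates 1, 3, 4 and 5 had 26427 to 45425 CPM. The same sum was 8388 to 15341 CPM in untreated, 135295 to 143564 in IgG RIT, and 192290 and 47436 CPM for the CD45 RIT pair. Results that rest on TBI replicate 6 are given with and without it. CPM values of single genes were scaled by TMM factors of 1.15 to 1.23 in untreated, 0.849 to 1.19 in TBI, 0.798 to 0.876 in IgG RIT and 0.704 to 0.775 in CD45 RIT libraries. The median log2 fold change over all tested genes was -0.16 in TBI, -0.42 in IgG RIT and -0.37 in CD45 RIT against untreated, and it moved to -0.28, -0.94 and -1.08 without these factors and to -0.04, -0.21 and -0.13 with median-of-ratios (RLE) factors. Of all genes called in IgG RIT against untreated, 35.0% were higher with TMM, 46.7% with RLE and 14.5% without factors, and in CD45 RIT against untreated the share was 43.8% with TMM and 22.7% without factors.

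The genes lie in 2 clusters and 4 places of their own (GRCm38). Ibsp (chromosome 5, 104299171 to 104311469), Spp1 (104435118 to 104441050) and Dmp1 (104202613 to 104214102) sit on the plus strand within 270 kb, together with their relatives Dspp and Mepe. Bglap (chromosome 3, 88383501 to 88384464, minus strand) and Bglap2 (88377736 to 88378699) sit within 15.8 kb beside a further copy, Bglap3. Runx2 lies on chromosome 17 (44495987 to 44814797), Sp7 on chromosome 15 (102356606 to 102367182), Alpl on chromosome 4 (137741733 to 137796384) and Phex on chromosome X (157162075 to 157415312), all on the minus strand. Exons of Runx2 overlap those of the antisense gene Runx2os1 over 519 bases (5.87% of its exon length), and exons of Spp1 overlap those of Gm42793 on the same strand over 309 bases (18.8%), so reads there are uncertain between the genes.

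The 2 osteocalcin genes are printed first because their similarity limits what their counts can tell. Their coding sequences (GENCODE M21, without the stop codon) are 285 bases long and 98.6% identical, and the capitals mark the 4 bases that differ.
Bglap: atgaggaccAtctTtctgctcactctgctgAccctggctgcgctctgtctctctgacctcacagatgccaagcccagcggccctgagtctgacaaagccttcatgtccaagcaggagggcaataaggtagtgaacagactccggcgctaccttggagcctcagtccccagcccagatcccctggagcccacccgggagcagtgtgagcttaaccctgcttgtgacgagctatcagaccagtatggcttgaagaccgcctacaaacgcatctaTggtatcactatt
Bglap2: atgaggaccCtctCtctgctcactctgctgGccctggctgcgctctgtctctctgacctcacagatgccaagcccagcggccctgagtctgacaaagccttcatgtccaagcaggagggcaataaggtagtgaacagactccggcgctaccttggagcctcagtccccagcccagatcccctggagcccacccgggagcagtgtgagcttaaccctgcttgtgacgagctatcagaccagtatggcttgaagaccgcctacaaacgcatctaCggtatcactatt
Of all 50-base stretches of the Bglap transcript, 74.7% also occur in Bglap2, so the split of reads between the 2 genes depends on how the authors' counting treated shared reads, which is not given in the sources used here. Values of Bglap and Bglap2 are therefore given side by side and treated as uncertain between the copies. Bglap3 had 0 to 23 counts in every library.

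Promoters are shown because Runx2 binds a short core, ACCACA (reverse complement TGTGGT), in the regulatory DNA of bone genes, and several genes of the set moved together. The RefSeq table on GRCm38.p6 held 10 promoters for 7 of the 9 genes (250 bases before to 50 after the start) and none for Sp7 or Bglap2. The core occurred on either strand in 4 of the 10 promoters, 1 each of Runx2, Bglap, Spp1 and Dmp1, against 16.8% of all 32817 promoters in the table. In the following sequences, each 5′ to 3′ on the gene's strand, capitals mark the core, and Ibsp is shown as a member without it.
Runx2, chr17:44814578-44814877, minus strand: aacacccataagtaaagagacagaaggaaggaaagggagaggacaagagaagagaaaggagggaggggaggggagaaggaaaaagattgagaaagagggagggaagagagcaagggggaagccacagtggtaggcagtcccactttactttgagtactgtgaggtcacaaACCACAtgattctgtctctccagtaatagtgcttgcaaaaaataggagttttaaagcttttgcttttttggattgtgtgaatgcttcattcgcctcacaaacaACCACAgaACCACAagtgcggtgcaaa
Bglap, chr3:88384417-88384716, minus strand: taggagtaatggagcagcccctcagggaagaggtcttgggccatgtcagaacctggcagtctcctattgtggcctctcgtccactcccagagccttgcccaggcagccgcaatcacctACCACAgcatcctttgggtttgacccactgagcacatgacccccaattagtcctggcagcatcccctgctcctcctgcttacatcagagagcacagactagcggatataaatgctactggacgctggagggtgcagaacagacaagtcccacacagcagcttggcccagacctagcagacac
Spp1, chr5:104434861-104435160, plus strand: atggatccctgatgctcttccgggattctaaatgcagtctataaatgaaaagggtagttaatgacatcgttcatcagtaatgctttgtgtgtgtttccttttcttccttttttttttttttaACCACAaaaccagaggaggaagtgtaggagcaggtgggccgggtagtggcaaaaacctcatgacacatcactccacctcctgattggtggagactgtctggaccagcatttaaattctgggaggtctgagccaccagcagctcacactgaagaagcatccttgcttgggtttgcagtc
Dmp1, chr5:104202367-104202666, plus strand: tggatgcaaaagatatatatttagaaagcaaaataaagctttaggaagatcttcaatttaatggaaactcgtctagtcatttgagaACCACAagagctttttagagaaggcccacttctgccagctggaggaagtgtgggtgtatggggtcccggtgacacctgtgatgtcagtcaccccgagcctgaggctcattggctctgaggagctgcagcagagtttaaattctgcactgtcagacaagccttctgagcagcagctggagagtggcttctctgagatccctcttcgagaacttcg
Ibsp, chr5:104299037-104299336, plus strand: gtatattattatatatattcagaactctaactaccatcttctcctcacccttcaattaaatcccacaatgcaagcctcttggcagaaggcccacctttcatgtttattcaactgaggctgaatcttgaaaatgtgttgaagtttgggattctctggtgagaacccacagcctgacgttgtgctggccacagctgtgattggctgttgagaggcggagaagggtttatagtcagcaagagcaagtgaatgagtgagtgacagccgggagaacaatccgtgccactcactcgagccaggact
Relative to the start, the core lay at -80, 24 and 32 in Runx2, at -132 in Bglap, at -128 in Spp1 and at -164 in Dmp1. A TATA box (TATAAA or TTTATA) lay at -27 in Bglap and at -28 in Ibsp. The same letters lay farther from the start at -192 in an Alpl promoter and at -211 in Spp1. Counted anywhere in the window, they occurred in 4 of the 10 promoters against 13.6% of all. A CCAAT box (CCAAT or ATTGG) was also sought and occurred in 5 of the 10 promoters against 37.4% of all. All these matches describe letters in a window and do not show binding.

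After TBI, the commitment factors and bone sialoprotein were lower, while Dmp1, a gene of young osteocytes, did not pass the test, with a log2 fold change of -0.37 that was -1.49 without TBI replicate 6. Runx2 fell 13.5-fold, Ibsp 7.82-fold and Sp7 4.60-fold against untreated in edgeR's quasi-likelihood test with Benjamini-Hochberg adjustment over all tested genes. After IgG RIT, Runx2, Ibsp, Bglap and Bglap2 fell between 4.69-fold and 7.00-fold. After CD45 RIT, 7 of the 9 genes rose against untreated, from 3.34-fold for Runx2 to 27.9-fold for Spp1 and 49.1-fold for Dmp1, and the osteocalcin genes did not pass the test. In bulk RNA of sorted cells, a change in the share of bone cells and a change in RNA per bone cell cannot be told apart.

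Runx2, the first switch of the osteoblast lineage, was called against untreated in all 3 comparisons, as was Ibsp. Its level was 20.4, 35.9, 26.0 and 27.2 CPM in the untreated libraries, 1.91, 2.94, 2.29, 1.42 and 1.51 CPM in TBI, 1.85, 8.06 and 5.20 CPM in IgG RIT, and 63.0 and 119.9 CPM for the CD45 RIT pair. Every TBI and IgG RIT library lay below every untreated one, both CD45 RIT libraries lay above, and TBI and IgG RIT overlapped. The log2 fold change against untreated was -3.76 ± 0.43 (SE) after TBI (adjusted p = 0.00136). It was -2.44 ± 0.50 after IgG RIT (adjusted p = 0.00773) and 1.74 ± 0.50 after CD45 RIT (adjusted p = 0.0188, edgeR). The rise after CD45 RIT was not called without CD45 RIT replicate 2 (1.17, adjusted p = 0.130) or without scaling factors (1.06, adjusted p = 0.140). Blood cell genes moved in the same libraries: a list of 16 haematopoietic genes summed to 13662 ± 990 CPM (SD, n = 4) in untreated, 1805 ± 896 (n = 5) in TBI, 925 ± 231 (n = 3) in IgG RIT, and 165 and 197 CPM for the CD45 RIT pair, and the part of blood cells in the Runx2 difference was not tested.

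Sp7, the factor that acts after Runx2 in the lineage, separated untreated from TBI and CD45 RIT libraries. Its level was 10.8, 13.7, 5.94 and 16.1 CPM in untreated, 2.23, 4.67, 2.38, 1.76 and 1.58 CPM in TBI, 6.37, 2.24 and 3.05 CPM in IgG RIT, and 82.6 and 54.4 CPM for the CD45 RIT pair. The TBI libraries lay below all untreated ones, 1 of the 3 IgG RIT libraries reached into the untreated range, and both CD45 RIT libraries lay above it. Against untreated, Sp7 fell after TBI (log2 fold change -2.20 ± 0.45, adjusted p = 0.0169) and rose after CD45 RIT (2.55 ± 0.55, adjusted p = 0.00390), and the difference after IgG RIT did not pass (-1.58 ± 0.53, adjusted p = 0.0575, edgeR). The TBI call missed the threshold without untreated replicate 2 (adjusted p = 0.0524), untreated replicate 4 (0.0515) or TBI replicate 5 (0.0537). The IgG RIT difference passed it without untreated replicate 3 (0.0475), without IgG RIT replicate 1 (0.0467) and without scaling factors (0.0187), and with DESeq2 (0.0207).

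Alpl, the enzyme that makes phosphate available at the mineralising surface, passed the test against untreated after CD45 RIT and not after TBI or IgG RIT. Its level was 98.1, 51.4, 53.9 and 80.0 CPM in untreated, 48.5, 34.3, 31.7, 39.2 and 7.10 CPM in TBI, 25.2, 22.1 and 42.8 CPM in IgG RIT, and 188 and 1136 CPM for the CD45 RIT pair. All TBI and IgG RIT values were below all untreated ones, yet neither difference passed (log2 fold change -1.14 ± 0.53 and -1.24 ± 0.63, adjusted p = 0.285 and 0.192, edgeR). The 2 CD45 RIT libraries differed from each other several-fold and both lay above the untreated range (3.22 ± 0.67, adjusted p = 0.00354). The call rested on the higher library: without CD45 RIT replicate 2 the log2 fold change was 1.36 and the adjusted p was 0.114.

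The osteocalcin genes, late products of the osteoblast, departed from the rest of the set after CD45 RIT. Bglap stood at 315, 206, 74.2 and 168 CPM in untreated, 99.3, 58.2, 52.1, 85.1 and 33.6 CPM in TBI, 62.3, 7.62 and 12.0 CPM in IgG RIT, and 294 and 533 CPM for the CD45 RIT pair. The corresponding Bglap2 levels were 114, 88.0, 37.8 and 71.4 CPM, 38.7, 24.8, 27.5, 31.1 and 13.5 CPM, 26.6, 3.43 and 4.41 CPM and 44.7 and 181 CPM. The lower of the 2 CD45 RIT values of each gene fell inside the untreated range, some TBI values lay above the lowest untreated one, and all IgG RIT values lay below the untreated range. After IgG RIT, Bglap fell by 2.81 ± 0.74 and Bglap2 by 2.76 ± 0.77 on the log2 scale (adjusted p = 0.0240 and 0.0299, edgeR). The Bglap call was lost without untreated replicate 1 (adjusted p = 0.0528), IgG RIT replicate 2 (0.0725) or IgG RIT replicate 3 (0.0774), and that of Bglap2 without any 1 of untreated replicates 1, 2 and 4 and IgG RIT replicates 2 and 3 (0.0529 to 0.0950). Neither gene passed after TBI (-1.54 ± 0.58 and -1.52 ± 0.61, adjusted p = 0.174 and 0.200) or after CD45 RIT (1.12 ± 0.73 and 0.54 ± 0.77, adjusted p = 0.244 and 0.603). A fit on TBI and untreated libraries only called both lower after TBI (-1.43 and -1.42, adjusted p = 0.0315 and 0.0161). The direction of Bglap2 after CD45 RIT was negative without scaling factors (-0.12) and without CD45 RIT replicate 2 (-0.85). The counts of both genes and of Bglap3 were also added up, and this sum does not depend on how counted reads were split between them. Shared reads that the counting may have left out would still be missing from it. For the sum, the log2 fold change was -1.53 after TBI (adjusted p = 0.173), -2.79 after IgG RIT (adjusted p = 0.0238) and 0.97 after CD45 RIT (adjusted p = 0.307, edgeR).

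Ibsp encodes bone sialoprotein, a matrix protein of cells that are starting to mineralise. Its level was 603, 763, 422 and 547 CPM in untreated, 73.8, 55.1, 76.4, 64.0 and 104 CPM in TBI, 112, 46.0 and 216 CPM in IgG RIT, and 1980.1 and 8283 CPM for the CD45 RIT pair. The untreated values stood clear of both lower groups and of the higher one, and TBI and IgG RIT overlapped. Ibsp fell by 2.97 ± 0.46 on the log2 scale after TBI (adjusted p = 0.00426). The log2 fold change after IgG RIT was -2.23 ± 0.54 (adjusted p = 0.0169), and Ibsp rose by 3.14 ± 0.55 after CD45 RIT (adjusted p = 0.00128, edgeR). The IgG RIT call was lost without IgG RIT replicate 1 (adjusted p = 0.0667) or replicate 2 (0.0522).

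Spp1 encodes osteopontin, an adhesive matrix protein, and its reads made up 30.9% to 81.4% of the counts of the 9 genes, depending on the library. Its level was 809, 1223, 545 and 587 CPM in untreated, 119.9, 128, 203, 124 and 597 CPM in TBI, 351, 465 and 667 CPM in IgG RIT, and 12914 and 31168 CPM for the CD45 RIT pair. TBI replicate 6 lay inside the untreated range while the other 4 TBI libraries lay well below it, the IgG RIT values straddled its lower end, and both CD45 RIT values exceeded all others. Spp1 rose by 4.80 ± 0.66 on the log2 scale after CD45 RIT (adjusted p = 2.52e-04, edgeR). After TBI the log2 fold change was -1.75 ± 0.51 (adjusted p = 0.0738), and without TBI replicate 6 it was -2.46 and was called (adjusted p = 0.00420); it was also called without scaling factors (-2.03, adjusted p = 0.0235) and by DESeq2 (-1.56, adjusted p = 0.0482). After IgG RIT it was -0.68 ± 0.58 (adjusted p = 0.449). Macrophage genes, which a Spp1 reading can come from, summed without the stromal gene Vcam1 to 94.9 to 107 CPM in untreated and 16.2 to 27.5 in TBI. The sums were 13.5 to 23.3 CPM in IgG RIT, and 60.0 and 344 CPM for the CD45 RIT pair. After CD45 RIT the list with Vcam1 was split, with 7 of 12 tested genes called higher and 3 lower (14.5% and 18.6% of all genes). Lgals3 had 199 and 4917 counts there, C1qb 303 and 1173 and Cd68 288 and 1495. Adgre1 and Marco had 0 in both CD45 RIT libraries, but also only 0 to 1 counts in IgG RIT libraries. The part of macrophages in the Spp1 difference was not tested. Osteoclast genes without Car2, which erythroid cells also express, summed to 239 to 311 CPM in untreated and 218 to 348 in TBI. They summed to 404 to 474 CPM in IgG RIT, and 228 and 617 CPM for the CD45 RIT pair. Of 9 tested osteoclast genes 5 were called higher and 0 lower after CD45 RIT (14.5% and 18.6% of all genes). Ctsk had 1686 and 4001 counts in CD45 RIT libraries against 42 to 76 in TBI, and Itgb3 605 and 1772 against 32 to 62. Acp5 went the other way, with 1146 and 1530 counts against 3260 to 5611 in TBI. Ocstamp, Dcstamp and Oscar had 0 counts in both CD45 RIT libraries, but also only 0 to 5 in TBI and 0 in IgG RIT libraries. The part of osteoclasts in the Spp1 difference was not tested.

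Dmp1, a marker of young osteocytes, had the largest log2 fold change of the 9 genes after CD45 RIT. Its level was 33.9, 17.9, 10.6 and 13.3 CPM in untreated, 2.26, 4.35, 5.86, 14.4 and 46.8 CPM in TBI, 44.4, 16.4 and 37.0 CPM in IgG RIT, and 495 and 1365 CPM for the CD45 RIT pair. Untreated, TBI and IgG RIT values overlapped, TBI replicate 6 was the highest of all 12 libraries without CD45 RIT, and both CD45 RIT libraries stood far above. Dmp1 rose by 5.62 ± 1.02 on the log2 scale after CD45 RIT (adjusted p = 0.00154, edgeR). TBI and IgG RIT gave log2 fold changes of -0.37 ± 0.76 and 0.78 ± 0.86, which did not pass (adjusted p = 0.884 and 0.563). The sign after TBI turned without untreated replicate 1 (0.07) and the value was -1.49 without TBI replicate 6 (adjusted p = 0.240).

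Phex, the peptidase whose loss causes phosphate wasting, was read at low counts. Its level was 5.65, 5.02, 4.74 and 3.36 CPM in untreated, 1.24, 0.138, 2.43, 1.25 and 0.287 CPM in TBI, 1.10, 0.149 and 1.16 CPM in IgG RIT, and 59.2 and 79.2 CPM for the CD45 RIT pair. Untreated libraries held 97 to 216 counts, TBI libraries 4 to 51 and IgG RIT libraries 3 to 22, so the depth sets wide limits on the lower groups. The groups did not overlap with untreated in any of the 3 comparisons. In edgeR, the rise after CD45 RIT passed the test (3.88 ± 0.88, adjusted p = 0.00590, edgeR), while TBI gave -2.12 ± 0.71 (adjusted p = 0.121) and IgG RIT -2.55 ± 0.88 (adjusted p = 0.0673). DESeq2 called Phex lower after both (-2.04 and -2.35, adjusted p = 0.0285 and 0.0146), and edgeR called it after IgG RIT without scaling factors (-3.10, adjusted p = 0.0306) and in a fit on 2 groups only (-2.27, adjusted p = 0.0372).

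**Figure D1:**
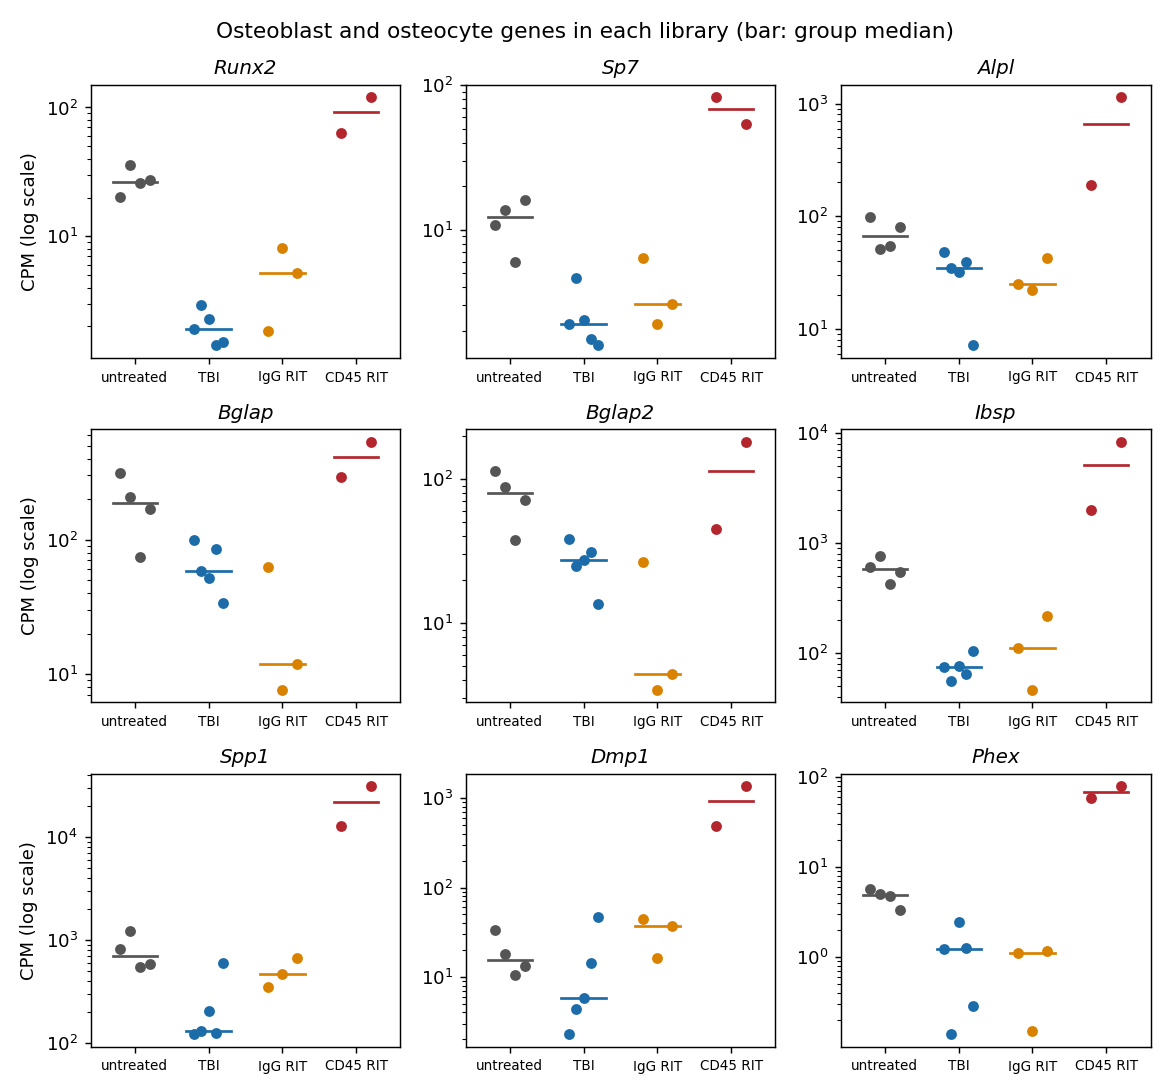
Level of each of the 9 genes in each of the 14 libraries (points), in CPM on a log scale by treatment group, with group medians as bars. CD45 RIT points lie above all others for 7 genes and reach into the untreated range for Bglap and Bglap2, and TBI replicate 6 is the highest TBI point for Spp1 and Dmp1.

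Their relatives in the chromosome 5 cluster behaved unequally. Mepe, a matrix phosphoglycoprotein of osteocytes, had 0 to 440 counts in untreated, 0 to 123 in TBI, 60 to 803 in IgG RIT, and 3708 and 10830 counts in CD45 RIT libraries, and rose by 6.64 ± 2.14 on the log2 scale after CD45 RIT (adjusted p = 0.0320, edgeR). Dspp, mainly a tooth gene, had 0 counts in 13 libraries and 1 count in an IgG RIT library. Of the collagen genes that make most of the bone matrix, Col1a1 averaged 1384 ± 630 CPM (SD, n = 4) in untreated, 485 ± 174 (n = 5) in TBI, and 196 ± 225 (n = 3) in IgG RIT, and the CD45 RIT pair had 5432 and 12973 CPM. It fell after IgG RIT (log2 fold change -2.82 ± 0.88, adjusted p = 0.0462), rose after CD45 RIT (2.73 ± 0.87, adjusted p = 0.0296) and gave -1.51 ± 0.70 after TBI (adjusted p = 0.273, not called). Col1a2 gave -2.91, 2.79 and -1.58 in the same order, with adjusted p = 0.0240, 0.0139 and 0.176.

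Read as a set, 3 of the 9 genes were called lower and 0 higher after TBI, where 3.38% of all tested genes were called lower and 0.921% higher, and 5 of the 9 had groups that did not overlap, against 12.8% of all genes in that direction. The median log2 fold change of the 9 was -1.75, beside -0.16 for all tested genes. After IgG RIT, 4 were called lower and 0 higher, against 10.7% and 5.75% of all genes, 6 did not overlap with untreated (27.4% of all), and the median was -2.23 beside -0.42. Without IgG RIT replicate 2, 1 of the 9 was called, and 2 without IgG RIT replicate 3 or without untreated replicate 1. After CD45 RIT, 7 were called higher and 0 lower, against 14.5% and 18.6% of all genes, 7 did not overlap (17.5% of all), and the median was 3.14 beside -0.37. The 3 comparisons share the 4 untreated libraries.

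**Figure D2:**
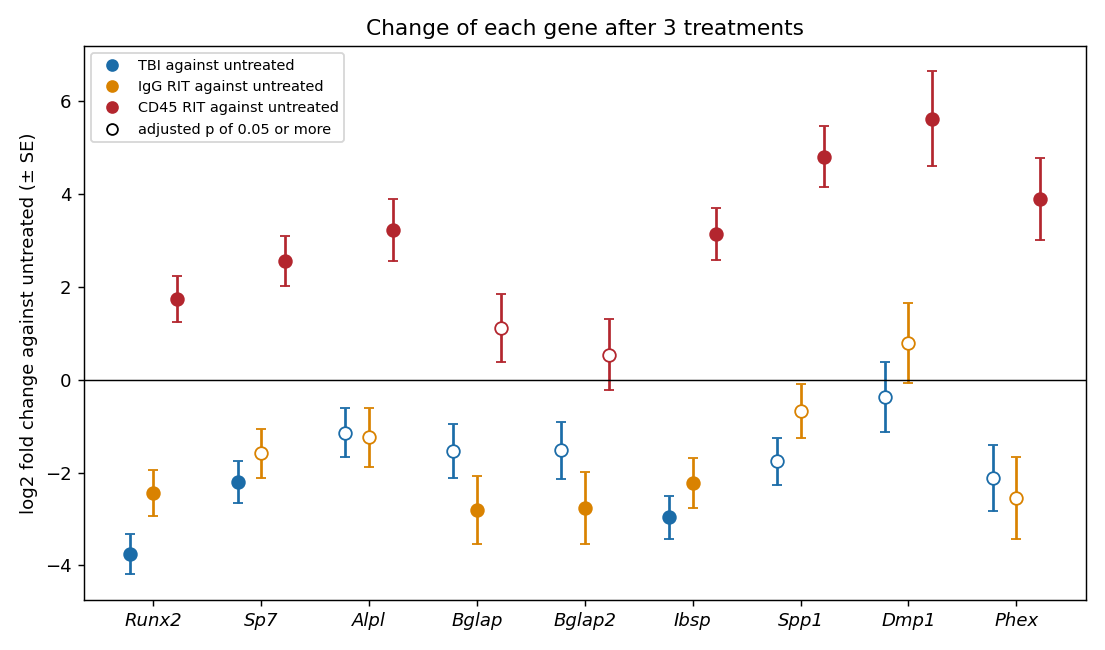
Log2 fold change of each gene against untreated (points, with SE as bars) after TBI, IgG RIT and CD45 RIT, filled where the adjusted p was under 0.05. Filled points lie below 0 for Runx2 and Ibsp after both TBI and IgG RIT and above 0 for 7 genes after CD45 RIT, where Bglap and Bglap2 are open.

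The treatments were also compared with each other. Against IgG RIT, which carried no target, all 9 genes were called higher after CD45 RIT where 20.2% of all genes were, with log2 fold changes from 3.30 ± 0.85 for Bglap2 (adjusted p = 0.00983) to 6.43 ± 1.10 for Phex (adjusted p = 8.18e-04, edgeR), and all 9 did not overlap (21.7% of all). Without CD45 RIT replicate 2, Bglap2 was not called (1.74, adjusted p = 0.137). In a fit on these 2 groups only, neither Bglap (adjusted p = 0.0819) nor Bglap2 (0.149) was called. These groups had library numbers from 11 to 16. Against TBI, all 9 were again called higher after CD45 RIT, where 19.6% of all genes were, from 2.06 ± 0.71 for Bglap2 (adjusted p = 0.0375) to 6.56 ± 0.64 for Spp1 (adjusted p = 1.12e-05, edgeR), and all 9 stood clear of TBI (18.2% of all). There, too, the osteocalcins were the weak members: without CD45 RIT replicate 2 Bglap gave 2.03 (adjusted p = 0.0692) and Bglap2 0.60 (adjusted p = 0.593), and Bglap2 was not called without TBI replicate 3, 4, 5 or 6 (adjusted p = 0.0596 to 0.0674) or without scaling factors (1.49, adjusted p = 0.119).

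Between IgG RIT and TBI, 0 of the 9 genes were called by edgeR, where 0.242% of all genes were, and 0 of the 9 had groups without overlap, beside 8.37% of all genes higher and 8.44% lower. Runx2 alone had an unadjusted p under 0.05 (log2 fold change 1.32 ± 0.44, adjusted p = 0.147 by edgeR), and DESeq2 called it (1.41, adjusted p = 0.0257). Without TBI replicate 6, 2 genes were called higher in IgG RIT, Spp1 (1.78, adjusted p = 0.0138) and Dmp1 (2.28, adjusted p = 0.0470, edgeR). In that fit the calls over all genes rose from 52 to 2024. Its TBI libraries had numbers from 1 to 9 and its IgG RIT libraries from 11 to 13. Treatment and library number therefore cannot be told apart there. In TBI replicate 6 the sum of the 9 genes was 684 CPM of the total count, whereas the remaining TBI libraries had 371 to 460 CPM, with 500.3 to 825 CPM after IgG RIT.

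The order of the 4 groups was therefore partly shared. CD45 RIT had the highest mean for all 9 genes and was separated from the next group for all but Bglap and Bglap2. Untreated came next for all but Dmp1, whose mean was higher after IgG RIT with overlapping libraries. TBI and IgG RIT overlapped for all 9 genes.

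The make-up of the signal was compared between genes per kb of exon. In the untreated libraries Spp1 made up 31.1%, 44.7%, 43.7% and 33.0% of the summed signal of the 9 genes, and the 2 osteocalcin genes together 47.7%, 31.3%, 26.4% and 39.4%. After TBI the osteocalcin genes held 66.5%, 55.8%, 45.4% and 62.5% in replicates 1, 3, 4 and 5 and 16.1% in replicate 6, where Spp1 held 70.3%. In the IgG RIT libraries Spp1 held 47.5%, 83.7% and 71.8% and the osteocalcin genes 35.0%, 5.82% and 5.10%. The CD45 RIT libraries resembled the last 2 of these in make-up, with 81.4% and 75.7% for Spp1 and 5.92% and 5.00% for osteocalcin, although their summed level was many times higher. Runx2, Sp7 and Phex together stayed under 1% of the signal in all 14 libraries.

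**Figure D3:**
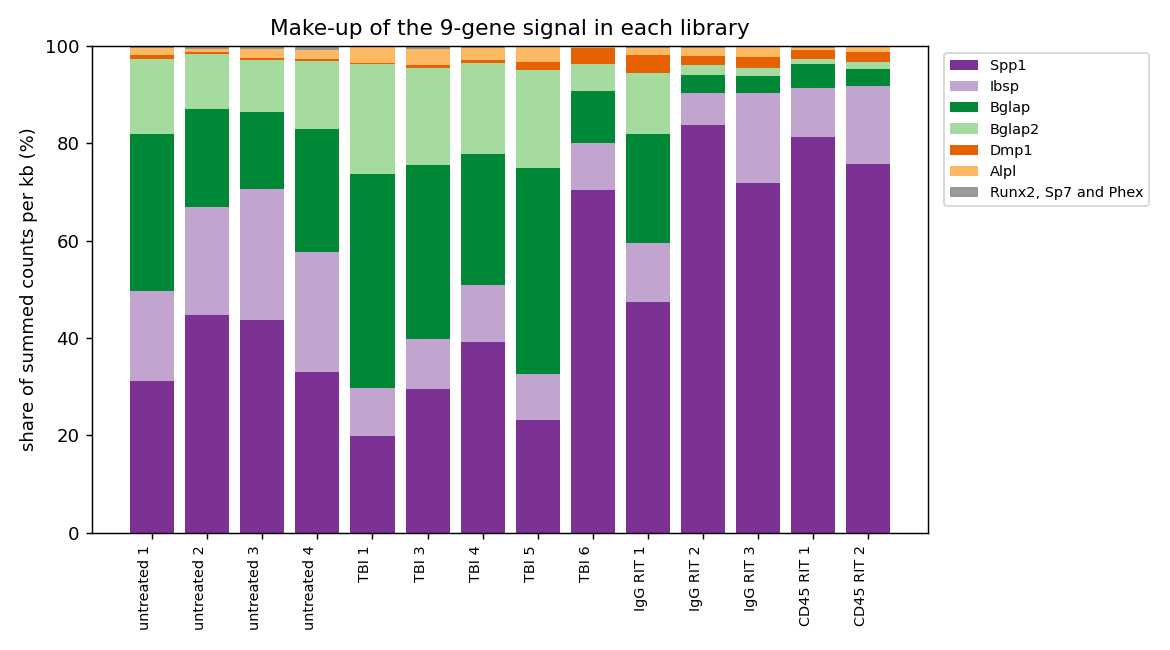
Share of each gene in the summed counts per kb of exon of the 9 genes, in percent, for each library; Runx2, Sp7 and Phex are drawn together. Osteocalcin fills 45.4% to 66.5% in TBI replicates 1, 3, 4 and 5 and under 6% in 2 IgG RIT and both CD45 RIT libraries, where Spp1 fills most of the bar.

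Ratios within a library do not depend on the scaling between libraries, and 12 comparisons of 4 ratios against untreated were made with exact two-sided permutation tests over libraries; the ratios were chosen after the values had been seen. Spp1 counts per Ibsp count were 1.07 to 1.60 in untreated, 1.62 to 5.73 in TBI, 3.09 to 10.1 in IgG RIT, and 3.76 and 6.52 in CD45 RIT libraries, with no overlap between untreated and any treatment. The exact p values were 0.0159, 0.0571 and 0.133, each the smallest its group sizes allow, and 0.127, 0.137 and 0.178 after adjustment over the 12. Dmp1 counts per Ibsp count were 0.0234 to 0.0562 in untreated, 0.0307 to 0.449 in TBI, 0.171 to 0.398 in IgG RIT, and 0.165 and 0.250 in CD45 RIT libraries (exact permutation p = 0.0317, 0.0571 and 0.133, adjusted 0.127, 0.137 and 0.178). Ibsp counts per Bglap count were 1.92 to 5.69 in untreated, 0.743 to 3.10 in TBI, 1.79 to 18.0 in IgG RIT, and 6.75 and 15.5 in CD45 RIT libraries (exact permutation p = 0.0317, 0.514 and 0.133, adjusted 0.127, 0.617 and 0.178). None of the 12 passed 0.05 after adjustment. For every ratio the smallest exact permutation p possible was 0.0571 with 3 IgG RIT libraries and 0.133 with 2 CD45 RIT libraries. Those comparisons could therefore not pass whatever the values. With 5 TBI libraries the smallest possible p was 0.0159. Adjusted over the 12, a TBI comparison could pass only if all 4 TBI ratios reached that value. Bglap counts per Bglap2 count were 1.96 to 2.76 in untreated, 1.90 to 2.74 in TBI and 2.22 to 2.71 in IgG RIT libraries, and 6.56 and 2.94 in CD45 RIT libraries.

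Marrow stroma was read beside the bone genes. The reticular cells of marrow stroma carry Lepr and Cxcl12 and include the progenitors of osteoblasts, and a list of 21 of their genes, chosen by hand, summed to 3007 ± 912 CPM (SD, n = 4) in untreated, 471 ± 119 (n = 5) in TBI, 688 ± 318 (n = 3) in IgG RIT, and 41072 and 45120 CPM in CD45 RIT libraries. Of its 20 tested genes, 15 were called lower after TBI (3.38% of all genes) and 19 higher after CD45 RIT (14.5%), while the 3 lower and 1 higher after IgG RIT were near the shares of all genes (10.7% and 5.75%). The number called after IgG RIT was 2 without untreated replicate 2 or 4, and 16 without scaling factors. By level, 12 of the 20 lay below untreated without overlap after IgG RIT, against 27.4% of all genes. Their median log2 fold change there was -1.35, beside -0.42 for all tested genes. Over the 9 bone genes the sums were 2138 ± 677, 475 ± 121 and 609 ± 187 CPM in the same order, and 11345 and 33280 CPM in CD45 RIT libraries.

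The bone genes were also set against the stromal list. Per 1000 counts of the list, the 9 genes together had 865, 689, 705 and 597 counts in untreated, 782, 909, 1086, 1228 and 1122 in TBI, 947, 1043 and 782 in IgG RIT, and 276 and 738 in CD45 RIT libraries. The CD45 RIT values lay below and inside the untreated range, TBI replicate 1 and IgG RIT replicate 3 lay inside it, and the other TBI and IgG RIT libraries lay above it. Runx2 per 1000 stromal counts was 8.77 to 15.5 in untreated and 1.08 and 2.06 in CD45 RIT libraries, and Bglap was 44.3 to 135 and 5.03 and 9.16, without overlap. Ibsp was 216 to 260 in untreated and 33.9 and 142 in CD45 RIT libraries. The 2 CD45 RIT values of Spp1 lay on either side of the untreated range (221 and 536, against 232 to 350), and those of Dmp1 lay inside and above it (8.48 and 23.5, against 5.11 to 14.6). Cxcl12 gave 41.4% to 46.9% of the list in untreated and CD45 RIT libraries, and without it Runx2 was 15.8 to 26.5 in untreated and 1.88 and 3.82 in CD45 RIT libraries. In TBI replicates 3, 4 and 5 the leading gene was Ebf1, which B lineage cells also express, at 28.1% to 57.1% of the list. Without Ebf1 the 9 genes together had 1019 to 2863 counts per 1000 in TBI against 615 to 887 in untreated libraries, and the median of Runx2 in TBI was 8.58 in place of 4.82. Both of these lists were chosen after the values had been seen, and no test was made on them.

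**Figure D4:**
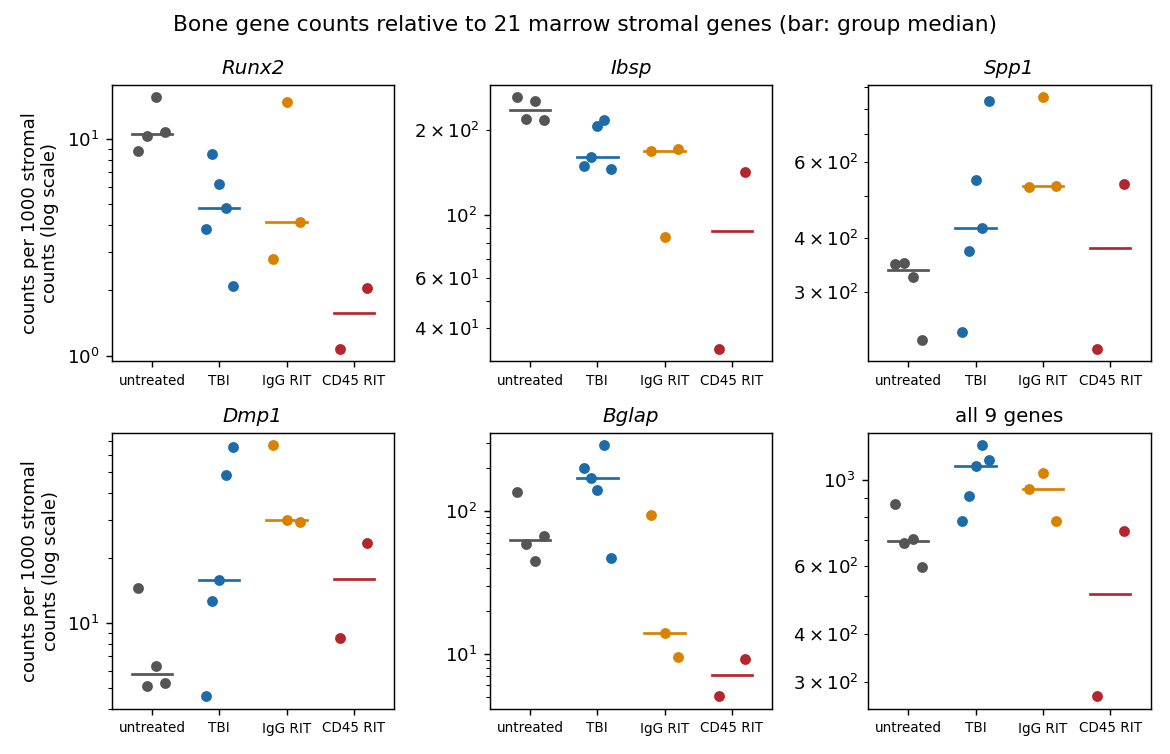
Counts of 5 of the genes and of all 9 together per 1000 counts of the 21 stromal genes (log scale), by library (points) and group median (bars). CD45 RIT points lie below all untreated ones for Runx2, Ibsp and Bglap, lie on either side of them for Spp1, and have 1 point inside their range for Dmp1 and for the 9 genes together.

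Further genes of bone cells were read from lists chosen by hand. Of 21 tested matrix genes, 19 were called higher after CD45 RIT (14.5% of all genes), 14 lower after IgG RIT (10.7%) and 6 lower after TBI (3.38%), with median log2 fold changes of 3.06, -2.27 and -1.83. The proteoglycan genes Ogn and Bgn and the calcification inhibitor Mgp rose by 4.61 ± 0.42, 4.41 ± 0.49 and 4.33 ± 1.03 after CD45 RIT (adjusted p = 1.63e-05, 5.46e-05 and 0.00740). Among called genes whose groups did not overlap, the largest falls after TBI were those of Ogn (-2.57 ± 0.34, adjusted p = 0.00204), the collagen chaperone gene Serpinh1 (-2.34 ± 0.34, adjusted p = 0.00319) and Bgn (-2.31 ± 0.39, adjusted p = 0.00642, edgeR). After IgG RIT they were those of Ifitm5, a membrane protein gene of osteoblasts (mean 4.16 CPM in untreated, 0 to 6 counts in IgG RIT libraries, adjusted p = 0.0113), Cgref1 (-4.05 ± 0.77, adjusted p = 0.00574) and the collagen gene Col5a2 (-3.12 ± 0.66, adjusted p = 0.00890). Without CD45 RIT replicate 2, 11 matrix genes were called in place of 19, and after IgG RIT 9 were called without untreated replicate 1 or 4 or IgG RIT replicate 2 or 3.

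Of 11 tested genes of mineral and phosphate handling, 10 were called higher after CD45 RIT (14.5% of all genes), 4 lower (10.7%) and 1 higher (5.75%) after IgG RIT, and 2 lower after TBI (3.38%). Among those without overlap, the largest rises after CD45 RIT were those of the vitamin D receptor Vdr (4.32 ± 0.91, adjusted p = 0.00371), the sphingomyelinase Smpd3 (3.89 ± 0.87, adjusted p = 0.00524) and Fam20c, the kinase of matrix phosphoproteins (3.65 ± 0.80, adjusted p = 0.00468, edgeR). Vdr fell after IgG RIT (-3.38 ± 0.94, adjusted p = 0.0296), as did the annexins Anxa6 (-2.85 ± 0.59) and Anxa2 (-2.57 ± 0.51), whereas the phosphate carrier Slc20a1 rose (1.58 ± 0.33, adjusted p = 0.00824). After TBI the called genes were Anxa2 (-2.68 ± 0.42, adjusted p = 0.00467) and Anxa5 (-2.01 ± 0.26, adjusted p = 0.00187, edgeR). Without CD45 RIT replicate 2, or without scaling factors, 6 were called after CD45 RIT.

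Of 14 tested transcription factor genes of the lineage, 6 were called higher after CD45 RIT (14.5% of all genes), 4 lower (10.7%) and 2 higher (5.75%) after IgG RIT, and 1 in each direction after TBI (3.38% lower and 0.921% higher). The homeobox genes Msx1 and Dlx5 rose by 5.13 ± 1.09 and 4.39 ± 0.78 after CD45 RIT (adjusted p = 0.00392 and 0.00133), and Snai2 by 4.07 ± 0.75 (adjusted p = 0.00164, edgeR). Dlx5 fell after TBI (-3.03 ± 0.64, adjusted p = 0.0209) and Atf4, a stress-responsive factor that is not limited to bone, rose (0.94 ± 0.22, adjusted p = 0.0317). After IgG RIT, Atf4 and the broadly expressed Sp3 rose (1.79 ± 0.24 and 1.31 ± 0.31, adjusted p = 0.00184 and 0.0144). The largest called falls were those of Zfp521 and Dlx6, both with 0 counts in all 3 IgG RIT libraries (means of 3.16 and 0.586 CPM in untreated), and Twist1 (2.61 CPM in untreated, 0 to 10 counts in IgG RIT libraries). The 2 calls after TBI fell to 0 without untreated replicate 2 or 4 or TBI replicate 3 or 5, and to 1 without untreated replicate 1 or 3 or TBI replicate 4. After IgG RIT 3 were called in place of 6 without IgG RIT replicate 1.

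Of 11 tested osteocyte genes outside the set, 6 were called higher and 1 lower after CD45 RIT (14.5% and 18.6% of all genes), and 1 was called lower after IgG RIT, a share near the 10.7% of all genes. After TBI 0 were called (3.38% of all genes lower and 0.921% higher), where 2 had an unadjusted p under 0.05 by edgeR, DESeq2 called 0 and edgeR called 1 without TBI replicate 6. Besides Mepe, the largest called rises without overlap were those of Tnfrsf11b, the decoy receptor that restrains osteoclasts, from 0 to 32 counts in untreated to 1127 and 1762 counts in CD45 RIT libraries (adjusted p = 0.0341), and Irx5 (4.89 ± 1.08, adjusted p = 0.00494). The chaperone gene Hyou1 fell (-4.25 ± 0.82, adjusted p = 0.00213, edgeR). Zfp385a fell after IgG RIT (-3.66 ± 0.49, adjusted p = 0.00184). Sost, the WNT inhibitor of mature osteocytes, had 0 to 2 counts in every library, at or under the floor of 3 counts, as Dspp did. In CD45 RIT against untreated, 4, 3 and 4 of the list were called without untreated replicate 2, 3 and 4, in place of 7.

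Of 26 tested genes of PTH, WNT and BMP signalling, the pathways that drive osteoblast formation, 17 were called higher after CD45 RIT (14.5% of all genes) and 5 lower after TBI (3.38%), while the 2 called lower after IgG RIT were a share below the 10.7% of all genes. The WNT receptor gene Fzd4 had 0 to 43 counts in untreated and 3848 and 4410 in CD45 RIT libraries (log2 fold change 8.91 ± 1.49, adjusted p = 9.06e-04), the bone morphogenetic protein gene Bmp2 had 0 to 38 and then 2301 and 2642 counts (7.60 ± 1.84, adjusted p = 0.00809), and the WNT antagonist gene Sfrp1 rose by 6.40 ± 0.83 (adjusted p = 1.67e-04, edgeR). After TBI, Bmp4 (-3.90 ± 0.75, adjusted p = 0.0128), Bmp6 (-2.58 ± 0.59, adjusted p = 0.0294) and Pth1r, the receptor of parathyroid hormone (-2.24 ± 0.41, adjusted p = 0.0105), fell. After IgG RIT the called genes were Smad1 (-2.57 ± 0.65, adjusted p = 0.0203) and Sfrp4 (-1.18 ± 0.34, adjusted p = 0.0334, edgeR). After TBI 2 were called without untreated replicate 2 or 4 or TBI replicate 1, 3 or 5, and 3 without TBI replicate 4 or 6. After IgG RIT 1 was called without untreated replicate 2 or IgG RIT replicate 1, 0 without IgG RIT replicate 2, 4 without untreated replicate 3 or IgG RIT replicate 3, and 7 without scaling factors.

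**Figure D5:**
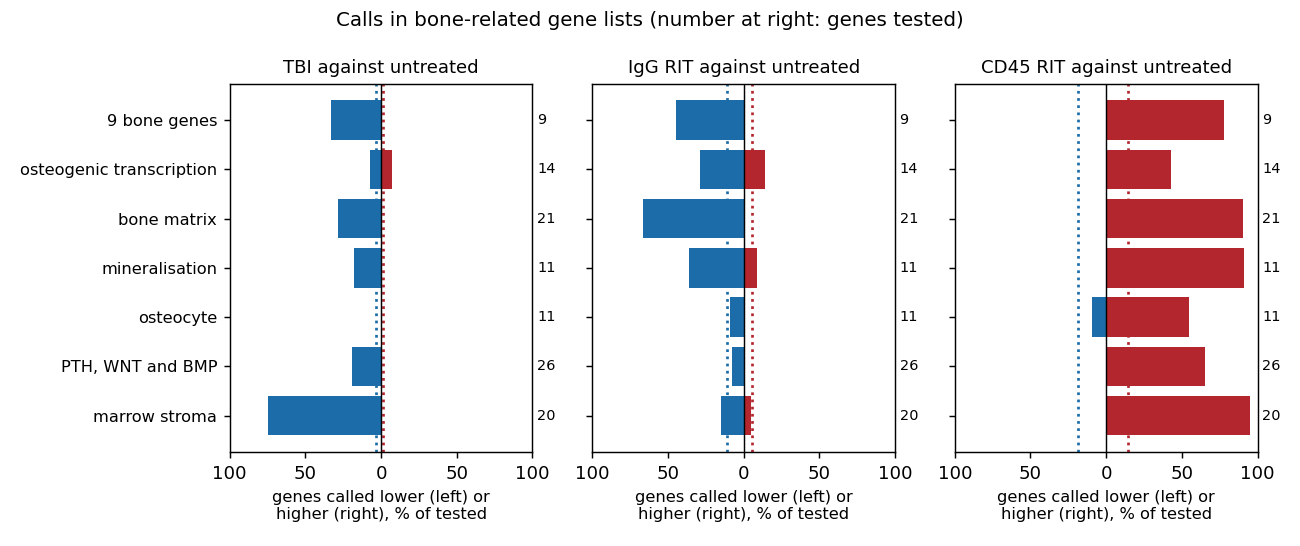
Share of tested genes called lower (left) and higher (right) against untreated, in percent, for the 9 genes and 6 lists of related genes, with the shares over all tested genes as dotted lines. After CD45 RIT the bars on the higher side stand for 19 of 21 matrix, 10 of 11 mineralisation and 19 of 20 stromal genes, and after TBI the longest bar on the lower side is that of stroma.

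Genes with the most similar profile were sought among 8207 protein-coding genes outside the set that averaged 3 or more in log2 CPM, by Pearson correlation with the mean log2 CPM of the 9 genes. Over the 14 libraries they were Tmem159 (0.985), Rcn3 (0.983), Cst3 (0.983), Bgn (0.982) and Maged2 (0.982), beside a median of -0.27 over all genes compared. Over the 12 libraries without CD45 RIT they were Grn (0.973), Flot1 (0.962), Anxa5 (0.961), Saraf (0.960) and Bgn (0.956), beside a median of 0.14. Bgn alone was in both. Among the 9 genes, Bglap and Bglap2 correlated at 0.994 over these 12 libraries, Ibsp and Runx2 at 0.842 and Ibsp and Phex at 0.809, while Dmp1 correlated with Spp1 at 0.685, with Ibsp at 0.335 and with Alpl at -0.26. These correlations are descriptions over libraries that differ in treatment, depth and cell content.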

How the data were processed

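Per the labels' protocols, RNA of sorted cells was amplified with SMART-Seq v4 and made into libraries with Nextera XT, which mark neither molecules nor strand. The authors deposited raw counts per gene. Per the submitters' processing notes, FastQC 0.11.9, STAR 2.7.7a, edgeR 3.36.0 and the build hg38 were named, whereas the gene coordinates in the table were those of GENCODE M21 on mouse GRCm38 for all 54587 matched genes. From the deposited counts, edgeR 4.0.16 (R 4.3.3) was fitted over the 4 groups with TMM factors and a robust quasi-likelihood test after a filter at 10 counts (total 15). Log2 fold changes are given with SE, and p-values are adjusted over 21509 genes, called under 0.05. Ratios were tested with exact permutations (scipy 1.17.1). Values per kb use the deposited gene length. The text names all 9 genes, their relatives, Col1a1 and Col1a2, and from each bone list up to 3 called genes per direction with the largest change and no overlap of groups. The genes and lists were chosen with earlier results of these data known. The test was also run on simulated data, but no outcome is given here, so its error rate with 2 CD45 RIT libraries is not shown. Alternatives were RLE or no factors, no filter, a replicate block, fits on 2 groups, DESeq2 1.42.0, summed osteocalcin copies and each library left out.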

Additional observations from a re-analysis of the deposited data

Results flagged for a closer look

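In the groups of 4 and 5 libraries, the highest or lowest value was compared with the rest by Dixon's ratio, over 18 gene and group combinations, and 3 exceeded the 95% critical value. Chance gives about 1 in 20 such combinations. Sp7 in TBI replicate 3, at 4.67 CPM, lay far above the other TBI libraries. Spp1 in TBI replicate 6 stood at 597 CPM and Dmp1 in the same library at 46.8 CPM, each far above the other 4 TBI libraries.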

How the results depend on the processing

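For the 9 genes, 130 of 142 alternative values after TBI, 105 of 124 after IgG RIT and 110 of 115 after CD45 RIT kept the direction and the side of the threshold against untreated. The count of called genes after TBI was 3, and 5 in a fit on 2 groups only or with DESeq2, with 2 to 4 when 1 library was left out. After IgG RIT it was 4, with 1 to 5 when 1 library was left out. Against untreated, CD45 RIT gave 5 to 7 when 1 library was left out. Between IgG RIT and TBI it was 0, 1 with DESeq2, and 0 to 2 when 1 library was left out. In the blocked fit (replicate block), the count was 1 after TBI and 2 after IgG RIT, and Bglap2 was not called in CD45 RIT against IgG RIT (adjusted p = 0.0688). The numbers did not pair the libraries: deviations of 13 same-numbered pairs correlated at -0.090 to 0.139, with 1 pair over 0.1. Signs that turned were those of Dmp1 after TBI (-1.49 to 0.074 when 1 library was left out, positive without untreated replicate 1), of Bglap2 after CD45 RIT (-0.12 without factors, -0.85 without CD45 RIT replicate 2 and 1.21 without replicate 1), and, between IgG RIT and TBI, of Alpl (0.010 with RLE factors, 0.011 with DESeq2, -0.44 to 0.094 when 1 library was left out) and Phex (-0.79 to 0.11 when 1 library was left out). The cause was not tested. Among the lists, the block gave 0 matrix and 3 stromal genes after TBI in place of 6 and 15, 3 matrix genes after IgG RIT in place of 14, and 11 after CD45 RIT in place of 19. In fits on 2 groups, 15 matrix genes were called after TBI and 13 of CD45 RIT against IgG RIT, in place of 20. DESeq2 called 11 matrix genes after TBI. Over all genes, 926 were called after TBI, 38 with the block, 2485 with DESeq2 and 3251 in the fit on 2 groups, and 52 between IgG RIT and TBI, 2024 without TBI replicate 6. Depth limits the lower groups most for Phex, with 3 to 51 counts after TBI or IgG RIT.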

Other observations

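Cartilage genes, which mark another skeletal cell type, had a higher mean sum in IgG RIT than in untreated libraries. Among the 9 bone genes only Dmp1 had that order of means. A list of 16 chondrocyte genes summed to 54.9 ± 28.2 CPM (SD, n = 4) in untreated, 16.4 ± 6.39 (n = 5) in TBI, 91.8 ± 22.5 (n = 3) in IgG RIT, and 372 and 2710 CPM in CD45 RIT libraries. The sums of IgG RIT (71.8 to 116 CPM) and untreated libraries (15.7 to 81.7 CPM) overlapped. Of its 13 tested genes, 0 were called after TBI by edgeR (3 at an unadjusted p under 0.05), 5 higher after IgG RIT (5.75% of all genes) and 10 higher after CD45 RIT (14.5%). The median log2 fold change of the list was -0.41, 3.20 and 6.39 in that order.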
